A study of Mus musculus with 9 samples.

Results

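The genes described here form the transcriptional response to low oxygen together with the pathway that breaks glucose down to lactate. They are 37 mouse genes listed by function, and for each the measurement with the highest mean over the arrays was taken among those annotated to that gene alone. Of the 37 genes, 34 had such a measurement, out of 18194 genes measured in this way, and they were covered by 73 of the 45101 probe sets. A probe set is a group of short probes near the 3′ end of a transcript, read out as a single value. The 34 genes are 13 of 15 glycolytic enzymes, both transporters (of glucose and of lactate), 3 regulators of glucose use, 4 HIF subunits and oxygen sensors, and 12 of 13 other hypoxia targets. Gpi1 and Eno1 had no probe set listed under them alone, and those of Bnip3l were shared with a pseudogene.

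Total RNA of XX ovaries was measured on 9 Affymetrix arrays, in duplicate on days 0, 10 and 20 and singly on days 4, 7 and 15 post-transplantation. Day 0 stands for wild-type ovaries taken at E13.0 and never grafted, and the other days for ovaries of that stage kept under the kidney capsule of adult male nude hosts (XY-host), with approximately 10 grafts pooled per array. The labels give the strain as ICR, whereas the methods name both C57BL/6 and ICR for the pregnant females. All pregnant females had received busulfan, which kills germ cells, so that the day 0 ovaries share this treatment with every graft. Neither ovaries left in place nor grafts in female hosts were analysed here, so that time after grafting cannot be told apart from age of the tissue. The litters and hosts of the array pools are not known here, and the p-values therefore cover the spread between pools alone.

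Cells sense oxygen through the prolyl hydroxylases, which mark the alpha subunits of hypoxia-inducible factor (HIF) for destruction as long as oxygen is at hand. When oxygen falls, the alpha subunits persist, pair with a constant partner and bind short sites called hypoxia response elements near genes for glucose uptake, glycolysis, vessel growth and survival. HIF subunits are controlled mainly at the protein level, which the arrays do not measure. A newly grafted tissue has no blood supply of its own until host vessels reach it.

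The promoters of these genes were read from RefSeq (GRCm38.p6) over 250 bases before and 50 bases after each annotated start, and searched on both strands for the cores ACGTG and GCGTG of the hypoxia response element. Of the 31 genes with an entry, 29 (93.5%) held a core in at least 1 promoter, against 46.7% of all 27025 genes. ACGTG alone was found in 80.6% of these genes and 21.8% of all, and GCGTG alone in 64.5% and 35.2%. A CG pair lies inside both cores, and the promoters of these genes had a median of 20 CG pairs per 300 bases against 7 over all promoters. The 250 bases before the start are shown for 4 genes that passed the test described next, 3 lower in grafts (Adm, Aldoc and Hk2) and 1 higher (Car9), with each core in capitals. CACGT and CACGC are the same cores read on the opposite strand.
Adm (chr7:110627407-110627656, plus strand): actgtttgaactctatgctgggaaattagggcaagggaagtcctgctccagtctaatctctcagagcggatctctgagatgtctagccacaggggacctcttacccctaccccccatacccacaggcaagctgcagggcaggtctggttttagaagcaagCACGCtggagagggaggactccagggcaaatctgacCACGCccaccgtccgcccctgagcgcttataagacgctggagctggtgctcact
Aldoc (chr11:78322823-78323072, plus strand): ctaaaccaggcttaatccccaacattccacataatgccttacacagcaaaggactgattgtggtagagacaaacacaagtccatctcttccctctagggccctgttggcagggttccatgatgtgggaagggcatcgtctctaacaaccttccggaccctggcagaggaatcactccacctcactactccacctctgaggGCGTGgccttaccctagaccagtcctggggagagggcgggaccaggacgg
Hk2 (chr6:82774455-82774704, minus strand): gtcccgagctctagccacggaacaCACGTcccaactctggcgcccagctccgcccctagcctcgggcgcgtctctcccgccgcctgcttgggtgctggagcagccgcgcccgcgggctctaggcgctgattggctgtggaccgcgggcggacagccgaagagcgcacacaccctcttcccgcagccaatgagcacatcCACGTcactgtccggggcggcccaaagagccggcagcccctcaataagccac
Car9 (chr4:43506776-43507025, plus strand): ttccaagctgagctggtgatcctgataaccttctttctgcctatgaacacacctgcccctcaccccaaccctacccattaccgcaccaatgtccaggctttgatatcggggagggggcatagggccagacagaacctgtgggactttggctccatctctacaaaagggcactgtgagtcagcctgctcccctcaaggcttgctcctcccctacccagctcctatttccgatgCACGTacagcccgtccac
In the sequences shown, the core nearest to the start began 54 bases before it in Adm, 50 in Aldoc, 52 in Hk2 and 18 in Car9. Since 29 of the 31 genes held a core, its presence cannot bear on the direction of change. Epas1, which was also higher in grafts, had no promoter entry. The 300 bases searched held 3 cores in this Aldoc promoter, of which 1 lies in the 250 bases shown, and a second annotated Aldoc promoter held 1 core, 39 bases before its start. Such a match is a description of the letters and not of a bound site.

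All values below are log2 intensities as normalized by the authors, and array medians were between 6.49 and 6.63. Day means were estimated for every probe set with limma, and a gene counted as called when its Benjamini-Hochberg adjusted p was below 0.05 and it differed by over 2-fold (SE, standard error of the log2 fold change). For days 4, 7 and 15, which have a single array, the spread of the duplicated days was used. The tissue label was checked on Foxl2, the granulosa cell transcription factor, which lay between 11.44 and 12.98 on the 9 arrays. Foxl2 belongs to a list of 10 gonadal somatic markers, of which 7 were called lower on day 20 (3.1% of all probe sets). Foxl2 itself went against its list. With day 20 replicate 1 left out, its day 20 log2 change was 1.47. All other genes of the list then lay between -3.12 (Lhx9) and -0.29 (Amhr2). Day 20 replicate 1 stood apart, because 12 marker genes of the kidney proximal tubule had a median log2 change from day 0 of 6.31 there and of -0.06 on day 20 replicate 2. Calls of the genes on day 20 are therefore also given without it. Within the kidney list, Miox, Slc27a2 and Cyp2e1 still had day 20 changes of 4.36, 2.55 and 2.24 when replicate 1 was left out. All other genes of that list then lay between -1.17 (Cubn) and 0.59 (Lrp2). Whether kidney RNA was present on the other graft arrays was not tested. In bulk RNA such as this, fewer cells of a type and less RNA per cell cannot be told apart.

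Over the 5 comparisons with day 0, 7 of the 34 genes were called at least once and 27 were not. The same count was not made over all probe sets, and the shares given below are those of single comparisons. The glycolytic enzyme genes Aldoc, Hk2, Pfkl and Pkm and the vasoactive peptide gene Adm were called lower, whereas the HIF subunit gene Epas1 and the carbonic anhydrase gene Car9 were called higher. On day 4, 0 of the 34 genes were called (0.774% of all probe sets were called higher and 0.155% lower), 7 had an unadjusted p under 0.05 (9.99% of all probe sets), and with array quality weights 1 was called. On day 7, Adm alone was called (1.28% of all probe sets higher, 0.386% lower). On day 10, 1 gene was higher and 3 were lower (2.87% of all probe sets higher, 1.33% lower), and on day 15, 1 was higher and 1 lower (2% higher, 0.8% lower). On day 20, 2 were higher and 4 lower (4.52% of all probe sets higher, 3.1% lower), and without day 20 replicate 1 the numbers were again 2 and 4, with Gapdh called and Pkm not. In the F test over all 6 days, Aldoc alone passed (adjusted p = 0.033, 2.15% of all probe sets). The number was 0 when any 1 array of day 0 or day 10 was left out, 2 without day 20 replicate 1 and 5 without day 20 replicate 2.

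The glycolytic enzymes as a group lay below day 0 from day 7 on. Their median log2 change was 0.08 on day 4, -0.44 on day 7, -0.76 and -0.67 on the day 10 arrays, -0.58 on day 15, and -0.48 and -0.70 on day 20 replicates 1 and 2. Over all probe sets the median stayed between -0.12 and -0.06 on the 7 graft arrays. The other hypoxia targets had medians of 0.19 on day 4, -0.25 on day 7, -0.28 and -0.12 on day 10, -0.28 on day 15, and -0.13 and -0.26 on day 20. The glycolytic median was the lower of the 2 on every graft array, by 0.11 on day 4 and by 0.30 to 0.55 on days 10, 15 and 20. This gap is a description of these genes, which were chosen with earlier results known, and was put to no test.

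**Figure D1:**
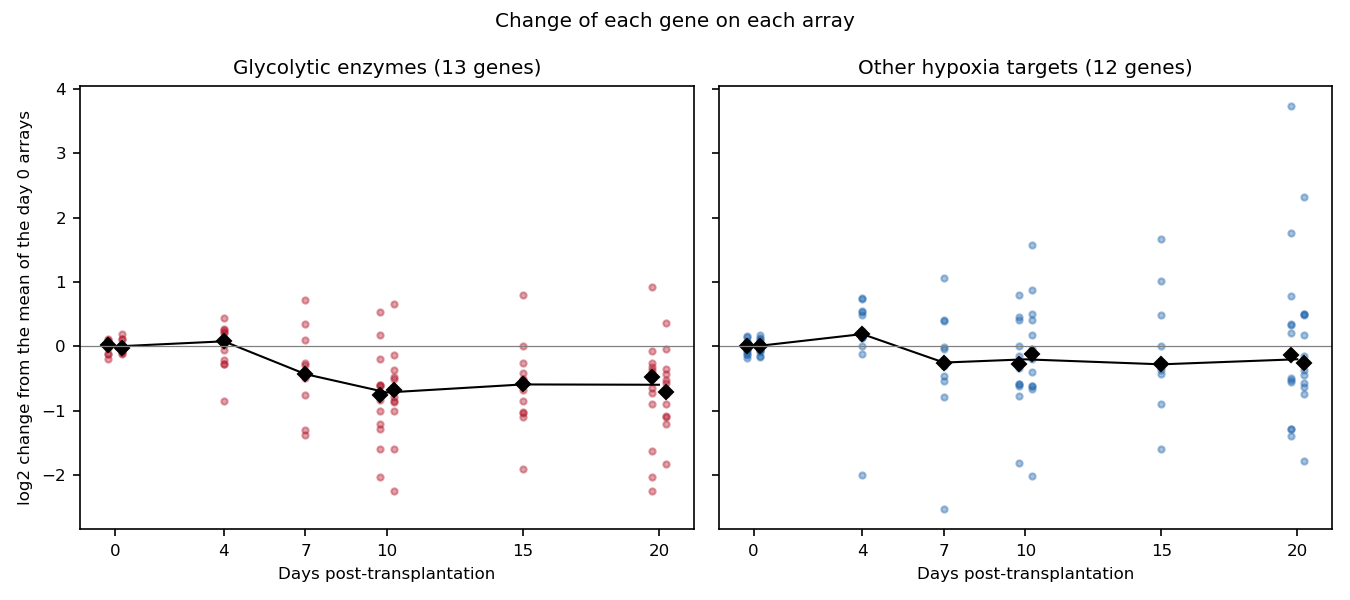
Change of each gene on each array, as log2 intensity minus the mean of the day 0 arrays (vertical axis), against days post-transplantation (horizontal axis), for 13 glycolytic enzymes (left) and 12 other hypoxia targets (right). Circles are genes, diamonds the median on each array and lines the mean of the medians per day; duplicate arrays are drawn side by side. The glycolytic medians lie between -0.76 and -0.44 from day 7 on, whereas those of the other targets lie between -0.28 and -0.12.

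Most glycolytic enzymes shared this direction. On the 5 arrays of days 10, 15 and 20, 10 of 13 (76.9%) were below both day 0 arrays on every array, against 25.9% of all probe sets, and 1 was above both. The exceptions were the hexokinase gene Hk1, the phosphofructokinase gene Pfkp and Pgk1, whose value of 12.39 on day 20 replicate 1 exceeded the 12.37 of a day 0 array. Hk1 lay between 9.29 and 10.04 on all arrays. Pfkp, which encodes the platelet form of the enzyme, lay at 8.16 and 8.38 on day 0 and between 8.63 and 9.19 on every graft array, with log2 fold changes of 0.59 on day 10 (adjusted p = 0.228) and 0.64 on day 20 (adjusted p = 0.151). The 3 forms of phosphofructokinase, Pfkl, Pfkm and Pfkp, thus had day 20 log2 fold changes of -1.55, -0.54 and 0.64. Without day 20 replicate 1 these were -1.08, -0.35 and 0.36. A second Pfkp probe set lay at 5.76 and 5.71 on day 0 and at 5.70 on both day 20 arrays. The third lay at 5.20 and 5.14 on day 0 and at 5.64 and 4.86 on day 20.

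Aldoc encodes the aldolase form best known from brain, which splits fructose bisphosphate. It measured 9.78 and 9.82 on the day 0 arrays, 8.95 on day 4, 8.42 on day 7, 7.77 and 7.56 on day 10, 7.89 on day 15, and 7.55 and 7.98 on day 20 (log2 intensity, replicates in order). Every graft array was below both day 0 arrays, and the days from 10 on were lower than days 4 and 7. Aldoc was 4.39-fold lower on day 10 (log2 fold change -2.13, SE 0.20, adjusted p = 0.00767, n = 2 on each day), 3.74-fold lower on day 15 (-1.90, SE 0.25, adjusted p = 0.0241) and 4.09-fold lower on day 20 (-2.03, SE 0.20, adjusted p = 0.00593). When any 1 array of days 0 or 10 was dropped, the day 10 and day 15 calls ended (adjusted p up to 0.102 and 0.116), and the day 20 call ended without either day 0 array (up to 0.0511). The day 20 change was -1.82 when day 20 replicate 1 was left out (adjusted p = 0.0142). The second Aldoc probe set lay at 3.93 on day 0 and 3.55 on day 10, under the 25th percentile of all values (4.82), and was not called. Aldoa, the widespread form, lay between 13.02 and 13.07 on day 0 and between 12.43 and 12.54 on day 10, a log2 fold change of -0.56 that did not pass (adjusted p = 0.112).

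Hk2 encodes the inducible hexokinase, which traps glucose in the cell. It measured 9.43 and 9.83 on day 0, 9.35 on day 4, 8.33 on day 7, 8.03 and 8.04 on day 10, 9.04 on day 15, and 8.74 and 9.11 on day 20. Day 10 was the low point, and the values of days 15 and 20 lay between day 10 and day 0. Hk2 was 3.02-fold lower on day 10 than on day 0 (log2 fold change -1.59, SE 0.21, adjusted p = 0.0194), whereas the day 20 change was -0.70 (adjusted p = 0.105), or -0.52 without replicate 1 (adjusted p = 0.204). The difference between days 20 and 10 was 0.89 and did not pass (adjusted p = 0.735). The day 10 call ended when any 1 array of day 0 or day 10 was left out (adjusted p up to 0.18).

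Pfkl encodes liver-type phosphofructokinase, and Pkm the pyruvate kinase of the last energy-yielding step. Pfkl measured 9.43 and 9.28 on day 0, 9.62 on day 4, 8.97 on day 7, 8.15 and 8.35 on day 10, 8.33 on day 15, and 7.33 and 8.27 on day 20. Its lowest value was on day 20 replicate 1, the array with kidney markers. Pfkl was 2.94-fold lower on day 20 (log2 fold change -1.55, SE 0.32, adjusted p = 0.0417), a call that ended when any 1 array of day 0 or day 10 was left out (adjusted p up to 0.166) and stood without day 20 replicate 1 (-1.08, adjusted p = 0.0407). Another Pfkl probe set passed on adjusted p alone, with log2 fold changes of -0.96 (day 10, adjusted p = 0.0493) and -0.94 (day 20, adjusted p = 0.0355), both short of 2-fold. Pkm measured 11.63 and 11.59 on day 0, 11.33 on day 4, 11.18 on day 7, 10.32 and 10.75 on day 10, 10.52 on day 15, and 9.98 and 10.40 on day 20. All graft arrays were below both day 0 arrays. Pkm was 2.68-fold lower on day 20 (log2 fold change -1.42, SE 0.23, adjusted p = 0.0209), and this call ended when any 1 array of day 0 or day 10 was left out (adjusted p up to 0.11) and without day 20 replicate 1 (-1.21, adjusted p = 0.0516).

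Gapdh, the dehydrogenase that is also a common reference gene, was measured best by the 3′ control probe set of the array. It lay at 13.80 and 13.58 on day 0, 13.63 on day 4, 13.40 on day 7, 12.68 and 12.84 on day 10, 12.66 on day 15, and 13.04 and 12.60 on day 20. From day 10 on every value was below both day 0 arrays. The log2 fold changes were -0.93 on day 10 (adjusted p = 0.0728), -1.03 on day 15 (adjusted p = 0.113) and -0.87 on day 20 (adjusted p = 0.0582), and none passed. Without day 20 replicate 1, Gapdh was called lower on day 20 (-1.09, adjusted p = 0.041). The 5′ and middle control probe sets of Gapdh were called lower on day 20, with changes of -1.25 and -1.24 (adjusted p = 0.0209 and 0.0284). The 3′ minus 5′ difference, a sign of RNA breakdown, lay between -0.17 and 0.15 on all arrays other than day 20 replicate 1, where it was 0.44. The 3′ minus middle difference was 0.21 and 0.12 on day 0, 0.28 on day 4, 0.30 on day 7, 0.47 and 0.24 on day 10, 0.50 on day 15, and 0.55 and 0.51 on day 20. For the beta actin control, the 3′ minus middle difference was 0.84 and 1.04 on day 0 and between 0.68 and 0.94 on the graft arrays. Its 3′ minus 5′ difference was 0.73 and 0.83 on day 0 and between 0.58 and 1.02 on the graft arrays. The part of RNA quality in these results was not tested.

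Pgk1 and Ldha are classical HIF targets at the middle and end of the pathway, the kinase that yields ATP and the dehydrogenase that makes lactate. Pgk1 measured 12.56 and 12.37 on day 0, 12.68 on day 4, 12.00 on day 7, 11.86 and 11.99 on day 10, 11.94 on day 15, and 12.39 and 11.90 on day 20. Ldha measured 12.31 and 12.19 on day 0, 12.33 on day 4, 11.76 on day 7, 11.49 and 11.60 on day 10, 11.75 on day 15, and 12.00 and 11.51 on day 20. Both had their highest value on day 4, and neither passed the test on any day, with log2 fold changes of -0.54 and -0.70 on day 10 (adjusted p = 0.234 and 0.135). Tpi1 and Pgam1, which encode 2 further enzymes of the lower pathway, had log2 fold changes of -0.81 and -0.63 on day 10 (adjusted p = 0.11 and 0.0957).

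**Figure D2:**
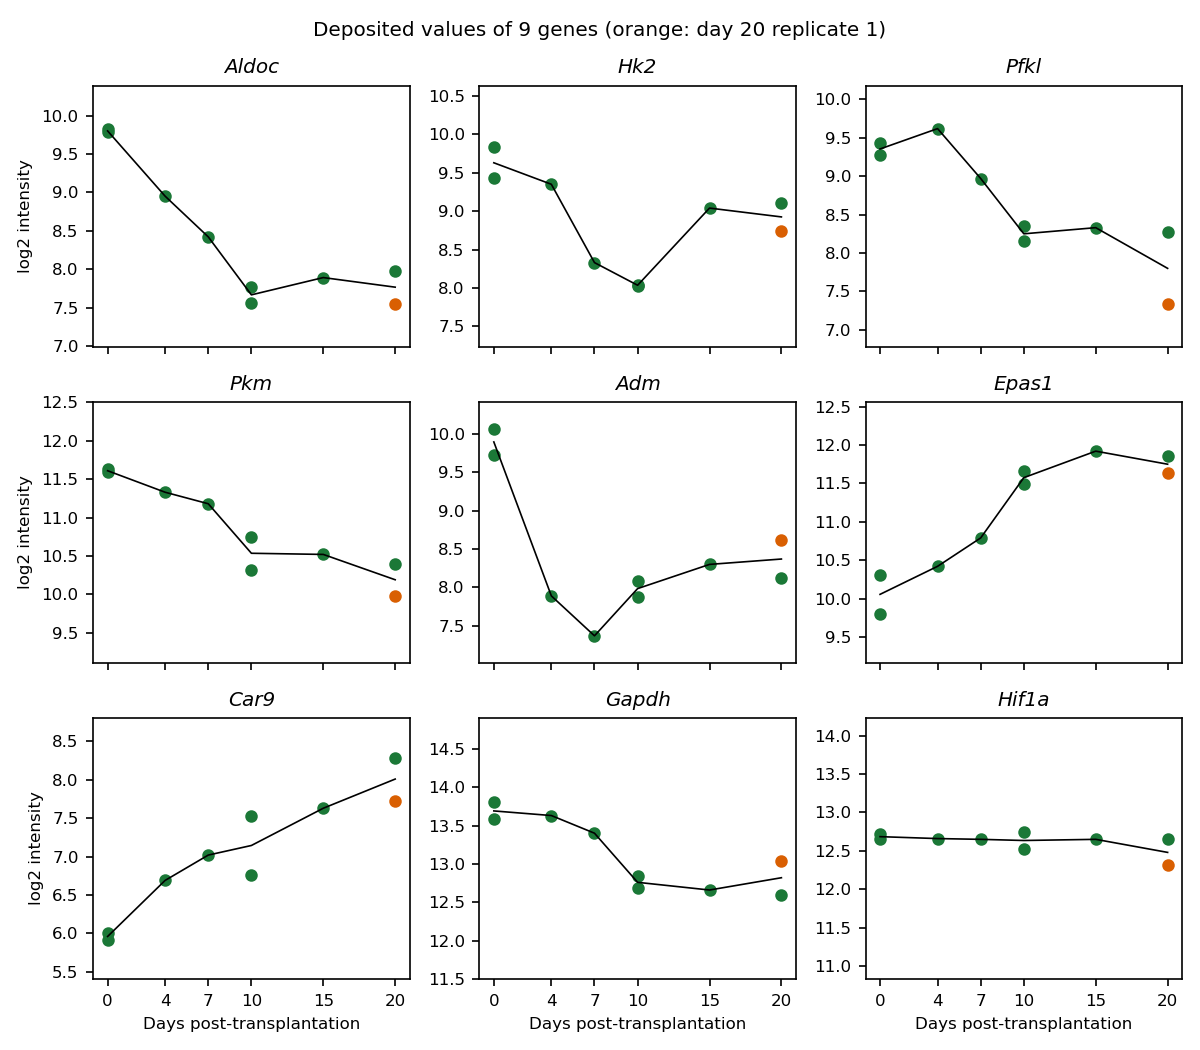
Deposited log2 intensity (vertical axis, each panel spanning the same range) of 9 genes against days post-transplantation, with a point per array and a line through the mean of each day. Aldoc, Hk2, Pfkl, Pkm and Adm lie lower on day 10 than on day 0, Epas1 and Car9 lie higher, Gapdh lies at 13.58 and 13.80 on day 0 and at 12.84 and 12.68 on day 10, and Hif1a stays between 12.31 and 12.75.

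Slc2a1 encodes GLUT1, the main glucose carrier of fetal tissue. It measured 10.60 and 10.81 on day 0, 10.85 on day 4, 9.95 on day 7, 10.09 and 9.99 on day 10, 10.45 on day 15, and 9.91 and 10.13 on day 20. The day 4 value was the highest and that of day 20 replicate 1 the lowest, and the day 10 change of -0.67 (adjusted p = 0.1) and day 20 change of -0.68 (adjusted p = 0.0653) did not pass. Slc16a3, the lactate exporter MCT4, lay at 6.08 on day 4 and between 4.86 and 5.46 elsewhere, near the 25th percentile of all values.

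Of the regulators of glucose use, 0 of 3 were called in any comparison. All 3 had an unadjusted p under 0.05 on days 10, 15 and 20, against 20.8%, 17.4% and 26.8% of all probe sets. Gys1, the glycogen synthase of most tissues, passed on adjusted p alone (0.0351 on day 10, 0.0307 on day 20), since its log2 fold changes of -0.89 and -0.80 fell short of 2-fold. Gys1 was at -0.78 on day 20 without replicate 1 (adjusted p = 0.0566). Pdk1, which closes the path from pyruvate into mitochondria, had log2 fold changes of -1.22 (day 10, adjusted p = 0.129) and -1.18 (day 20, adjusted p = 0.0999). Its day 0 arrays differed by more than a log2 unit, at 9.26 and 10.30, and a second Pdk1 probe set was called lower on day 20 (-1.47, adjusted p = 0.034). Pfkfb3, which makes the activator of phosphofructokinase, had the opposite sign, with changes of 0.91 on day 10 (adjusted p = 0.0933), 1.4 on day 15 (adjusted p = 0.0684) and 1.0 on day 20 (adjusted p = 0.0519).

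Among the HIF subunits, Epas1 rose and Hif1a was not called, each on its chosen probe set. Epas1 encodes HIF-2 alpha, the subunit known from endothelium and other cells around vessels. It measured 9.80 and 10.31 on day 0, 10.42 on day 4, 10.79 on day 7, 11.49 and 11.66 on day 10, 11.92 on day 15, and 11.64 and 11.86 on day 20. Every graft array was above both day 0 arrays. Epas1 was 2.87-fold higher on day 10 (log2 fold change 1.52, SE 0.22, adjusted p = 0.0247), 3.65-fold on day 15 (1.87, SE 0.27, adjusted p = 0.0322) and 3.24-fold on day 20 (1.7, SE 0.22, adjusted p = 0.0125). The day 10 and day 15 calls ended when any 1 array of day 0 or day 10 was left out (adjusted p up to 0.213 and 0.11), and the day 20 call ended without day 0 replicate 1 (adjusted p = 0.0621) but stood without day 20 replicate 1 (1.81, adjusted p = 0.032). A second Epas1 probe set lay at 6.02 on day 0 and 6.28 on day 10, with a change of 0.26 that did not pass (adjusted p = 0.581). The 12 endothelial markers had median log2 changes of -0.10 on day 4, 0.20 on day 7, and 0.24 to 0.46 from day 10 on, and their part in the Epas1 result was not tested.

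Hif1a, the subunit of HIF-1 found in most cells, measured 12.72 and 12.65 on day 0, 12.66 on day 4, 12.65 on day 7, 12.75 and 12.52 on day 10, 12.65 on day 15, and 12.31 and 12.65 on day 20. Its log2 fold changes lay between -0.21 and -0.03, and the largest, on day 20, did not pass (adjusted p = 0.525). A second Hif1a probe set lay between 9.28 and 9.84 on all arrays. The third measured 5.91 and 5.95 on day 0, 5.98 and 7.02 on day 10, and 6.95 and 6.53 on day 20. The fourth lay between 3.73 and 4.32, under the 25th percentile of all values. Egln3, an oxygen-sensing prolyl hydroxylase that is itself a HIF target, measured 8.02 and 7.61 on day 0, 8.41 on day 4, 8.04 on day 7, 7.60 and 8.03 on day 10, 8.28 on day 15, and 7.04 and 7.89 on day 20. Its day 4 value was the highest, with a change of 0.59 (adjusted p = 0.801). Egln1, the main hydroxylase, had a log2 fold change of 0.49 on day 4 (adjusted p = 0.468) and of 0.19 to 0.29 later. The difference in change between Epas1 and Hif1a was itself not tested.

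Adm, which encodes the vessel-relaxing peptide adrenomedullin, was the first of the 34 genes to be called on its chosen probe set, on day 7. It measured 10.06 and 9.73 on day 0, 7.89 on day 4, 7.37 on day 7, 8.09 and 7.88 on day 10, 8.30 on day 15, and 8.62 and 8.12 on day 20. All 7 graft arrays were more than a log2 unit below both day 0 arrays, and day 7 was the low point. Adm was 5.75-fold lower on day 7 (log2 fold change -2.52, SE 0.29, adjusted p = 0.0219), 3.74-fold lower on day 10 (-1.90, SE 0.23, adjusted p = 0.0154) and 2.87-fold lower on day 20 (-1.52, SE 0.23, adjusted p = 0.0193). The day 4 change of -2.0 (adjusted p = 0.0546) and the day 15 change of -1.59 (adjusted p = 0.0564) did not pass. The calls ended when any 1 array of day 0 or day 10 was left out (adjusted p up to 0.0954, 0.158 and 0.103 on days 7, 10 and 20). Leaving out day 20 replicate 1 gave a day 20 change of -1.77 (adjusted p = 0.0232). A second Adm probe set was called on all 5 days, with log2 fold changes of -2.20 on day 4 (adjusted p = 0.0167), -2.55 on day 7 (adjusted p = 0.0101), -2.06 on day 10 (adjusted p = 0.0048), -1.93 on day 15 (adjusted p = 0.0119) and -1.75 on day 20 (adjusted p = 0.00419).

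Car9, a carbonic anhydrase on the cell surface that is widely used as a mark of hypoxic tissue, had the opposite sign. It measured 6.0 and 5.92 on day 0, 6.69 on day 4, 7.02 on day 7, 6.76 and 7.53 on day 10, 7.63 on day 15, and 7.73 and 8.29 on day 20. Every graft array was above both day 0 arrays, and the day 20 arrays were the highest. Car9 was 4.14-fold higher on day 20 (log2 fold change 2.05, SE 0.32, adjusted p = 0.0194), whereas the day 10 change of 1.19 (adjusted p = 0.11) and the day 15 change of 1.67 (adjusted p = 0.098) did not pass. The call ended without either day 0 array (adjusted p up to 0.112) and with array quality weights, and stood without day 20 replicate 1 (2.33, adjusted p = 0.0345).

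Vegfa encodes the growth factor that draws vessels into tissue. It measured 9.88 and 9.58 on day 0, 9.87 on day 4, 9.43 on day 7, 9.15 and 9.11 on day 10, 9.30 on day 15, and 9.24 and 9.17 on day 20. From day 7 on all values were below both day 0 arrays, and the day 10 change of -0.60 (adjusted p = 0.122) and the day 20 change of -0.52 (adjusted p = 0.117) did not pass. Ndrg1, a stress-induced gene of differentiating epithelium, lay between 9.15 and 9.81 on 8 arrays and at 13.04 on day 20 replicate 1, the array with kidney markers. Its 4 other probe sets were likewise highest there, and the change of 2.12 on day 20 did not pass (adjusted p = 0.234), nor did that of 0.50 without this array (adjusted p = 0.125). The part of the kidney markers in this value was not tested.

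The remaining hypoxia targets were not called on any day. P4ha1, a collagen prolyl hydroxylase, and Mxi1, an antagonist of MYC, had changes of 0.40 to 1.01 and 0.40 to 0.49 over the 5 days. Ankrd37 and Ddit4, an ankyrin repeat gene and an inhibitor of mTOR, had log2 fold changes of -1.07 and -0.87 on day 20 (adjusted p = 0.0518 and 0.143). They measured 6.35 and 9.63 on day 20 replicate 1, the array with kidney markers, and 6.99 and 10.47 on day 20 replicate 2. Without replicate 1 their day 20 changes were -0.75 and -0.45. Bnip3, which promotes removal of mitochondria, had log2 fold changes of -0.51 on day 10 (adjusted p = 0.311) and 0.48 on day 20 (adjusted p = 0.275). Higd1a, Hmox1 and P4ha2 stayed between -0.54 and 0.55.

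**Figure D3:**
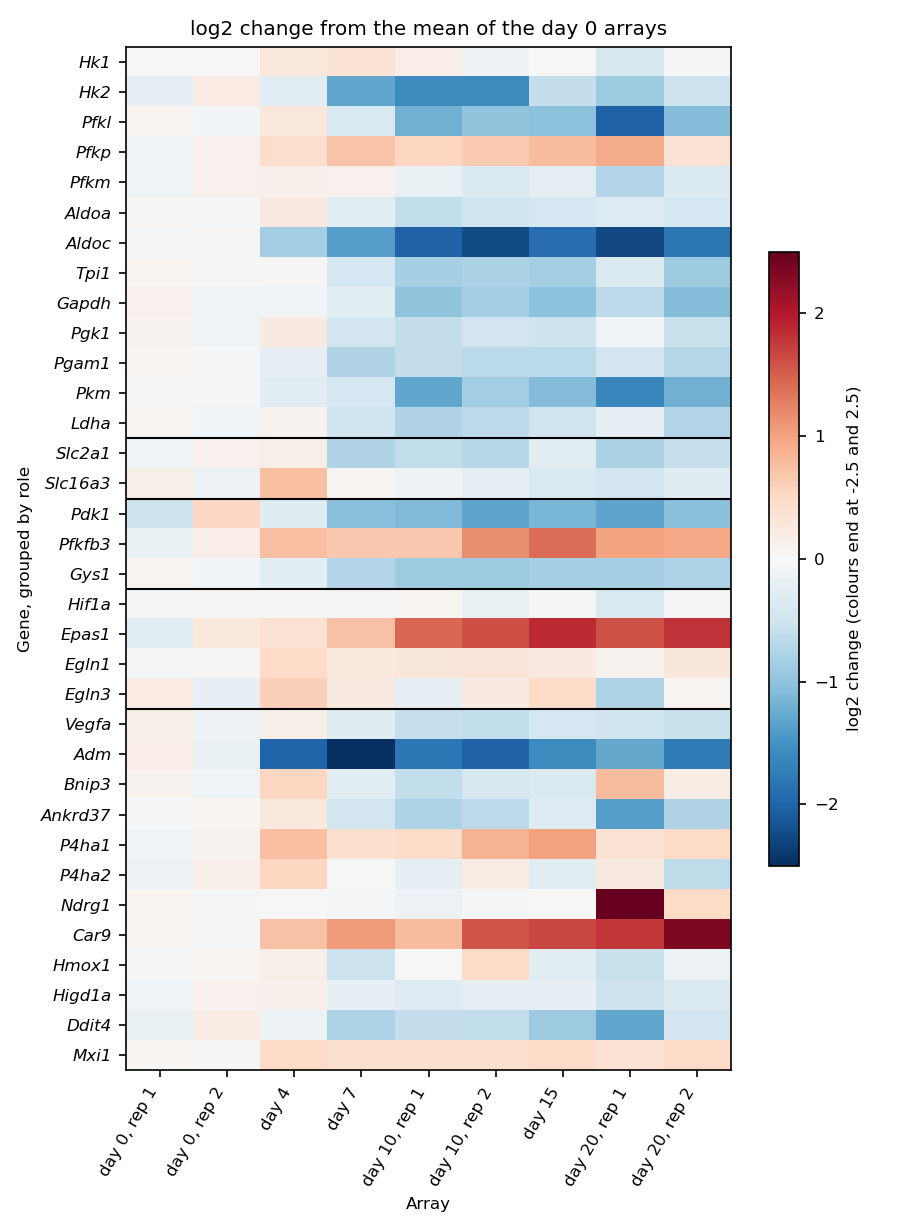
log2 change from the mean of the day 0 arrays (colour, blue lower and red higher, ending at -2.5 and 2.5) for the 34 genes (rows, grouped by role from glycolytic enzymes at the top to other hypoxia targets at the bottom) on the 9 arrays (columns). The blue block of glycolytic enzymes begins on day 7, Adm is blue from day 4, Epas1, Car9 and Pfkfb3 are red, and Ndrg1 is dark red on day 20 replicate 1.

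The day 4 array differed from the later ones. Of the 34 genes, 13 had their highest value there, including 5 glycolytic enzymes, both transporters and 4 other hypoxia targets, against 8.67% of all probe sets. Day 4 lay above both day 10 arrays for 26 of 34 genes, against 41.1% of all probe sets, and for 12 of 13 glycolytic enzymes. Between days 10 and 4, 0 of the 34 genes were called by limma (0% of all probe sets higher and 0% lower), and 16 had an unadjusted p under 0.05 (6.52% of all probe sets), with a single array on day 4. Between days 20 and 10, 0 genes were called (0.00222% of all probe sets higher, 0% lower), and 4 had an unadjusted p under 0.05 (5% of all probe sets). On day 20 replicate 1, the array with kidney markers, Bnip3 and Ndrg1 stood at 11.48 and 13.04. They stood at 10.87 and 9.81 on day 20 replicate 2, and at no more than 10.29 and 9.26 on day 10.

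**Figure D4:**
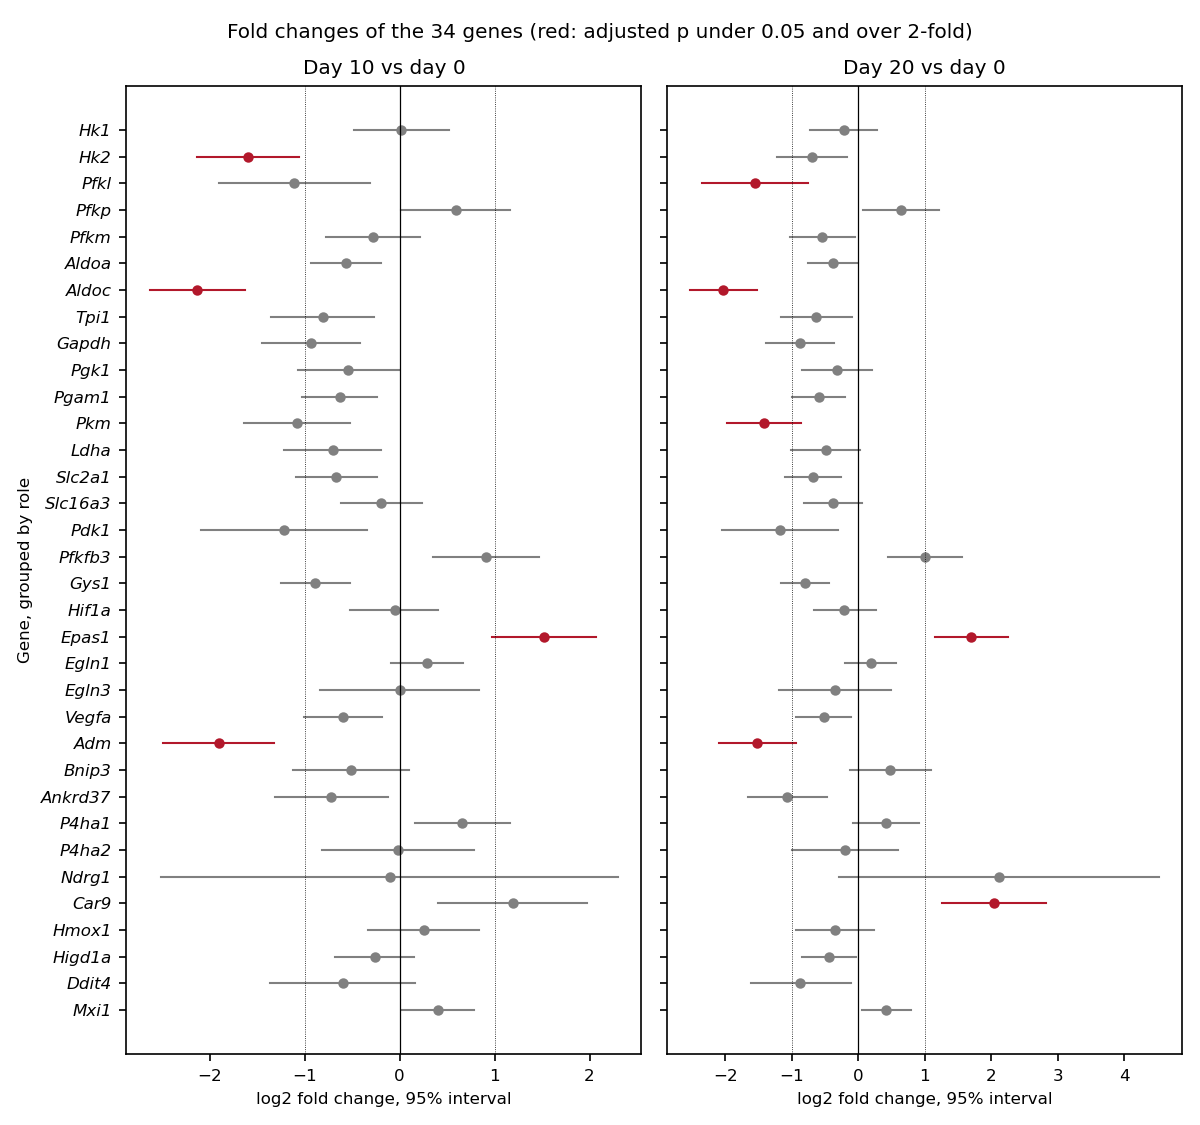
log2 fold change (horizontal axis) of the 34 genes on day 10 (left) and day 20 (right) against day 0, with the 95% interval of the limma fit as a line and dotted lines at 2-fold; red marks genes called higher or lower. On day 10 Hk2, Aldoc, Epas1 and Adm are red, and on day 20 Pfkl, Aldoc, Pkm, Epas1, Adm and Car9.

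Related pathway genes outside the 37 were taken from lists of known function and are given by count. Of 28 further hypoxia-inducible genes, 2 were higher on each of days 4 and 7 (0.774% and 1.28% of all probe sets) and 5 on day 15 (2%). On day 10, 6 were higher and 1 lower, and on day 20, 7 were higher and 2 lower. The shares called higher were 21.4% on day 10 and 25% on day 20, against 2.87% and 4.52% of all probe sets. Those called lower were 3.57% and 7.14%, against 1.33% and 3.1% of all probe sets. Without day 20 replicate 1, 6 were higher and 1 lower on day 20 (4.69% and 2.12% of all probe sets). Named here are those called with the largest changes on day 10, all of them higher, whereas those called lower are given by count alone. Vldlr, a lipoprotein receptor, was at 7.99 and 7.89 on day 0, 10.21 on day 4 and 10.95 to 11.28 later, and changed by 3.26 on day 10 (adjusted p = 0.00197). Lox, which cross-links collagen, changed by 2.69 on day 4 (adjusted p = 0.0246) and 2.08 on day 10 (adjusted p = 0.0113). The chemokine gene Cxcl12, the clock and stress repressor gene Bhlhe40 and the hormone gene Stc1 changed by 2.46, 1.55 and 1.53 on day 10 (adjusted p = 0.0154, 0.0159 and 0.014). Hypoxia-inducible genes were thus called in both directions in the same grafts, Adm lower on day 7 and Vldlr and Lox higher.

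Of 17 other glycolysis isoforms and branch enzymes, 2 were lower on day 10, 1 was lower on day 15 (Pfkfb4), and 2 were lower and 1 higher on day 20, against 1.33% of all probe sets lower on day 10, 0.8% lower on day 15, and 3.1% lower and 4.52% higher on day 20. Eno3, the muscle enolase, and Pfkfb4, a relative of Pfkfb3, changed by -1.68 and -1.28 on day 10 (adjusted p = 0.0369 and 0.0213), and Bpgm, which makes bisphosphoglycerate in red cells, by 2.01 on day 20 (adjusted p = 0.0406). Without day 20 replicate 1, Bpgm was not called (adjusted p = 0.0736), whereas Eno3 and Pfkfb4 were. Markers of skeletal muscle, where Eno3 is abundant, had a median log2 change of -1.25 and -1.32 on the day 10 arrays, and their part was not tested. Of 10 HIF pathway regulators, 1 (10%) was called lower on days 10, 15 and 20, against 1.33%, 0.8% and 3.1% of all probe sets. This was Hif3a, a subunit that can inhibit the others, with changes of -1.16, -1.34 and -1.81 (adjusted p = 0.0233, 0.0358 and 0.00483). Of 22 genes of pyruvate oxidation and the citric acid cycle, 1 (4.55%) was called higher on each of days 10 and 20. Over all probe sets the shares called higher were 2.87% and 4.52%. The gene was Pdp1, the phosphatase that reverses Pdk1, with changes of 1.24 and 1.58 (adjusted p = 0.0458 and 0.0167). Both genes were called on day 20 without replicate 1 too, as was the HIF regulator Arnt2 (1.06, adjusted p = 0.0446). Of 6 pentose phosphate genes and 6 gluconeogenesis genes, 0 were called by limma on days 10 and 20. On day 10, 3 and 0 had an unadjusted p under 0.05, against 20.8% of all probe sets. On day 20, 2 of the pentose phosphate genes were lower at an adjusted p under 0.05 but not over 2-fold. By adjusted p alone, 1945 of all 45101 probe sets were lower on that day. Fbp1, a gluconeogenesis gene, was called higher on day 20 without replicate 1 (2.84, adjusted p = 0.0235).

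Markers of other cell types moved over the same days. The 9 erythroid genes measured had median log2 changes between -3.10 and -2.16 on the graft arrays, and 5 of 9 were called lower on day 10 (1.33% of all probe sets). The 12 macrophage genes had medians between 1.58 and 3.33, and 8 of 12 were called higher on day 10 (2.87% of all probe sets). The 10 gonadal somatic genes had medians of -0.55 on day 4, -0.71 on day 7, -1.45 and -1.57 on day 10, -1.69 on day 15, and -2.46 and -1.59 on day 20. Of these 10, 4 were called lower on day 10 and 7 on day 20 (1.33% and 3.1% of all probe sets). The 11 cell cycle genes had medians between -1.45 and -0.41. The 6 germ cell genes had medians of -1.10 and 1.10 on the day 0 arrays, at levels of 7.53 and 9.77, so that the duplicates of the reference day differed, and of -3.28 on day 4, -2.41 on day 7, -1.55 and 0.51 on day 10, -0.10 on day 15, and -0.47 and 0.05 on day 20. The 6 adipocyte genes stood at 2.86 on day 20 replicate 1 and between -0.02 and 0.33 on the other graft arrays. The gonadal somatic medians, like those of the glycolytic enzymes, were lower on day 10 than on days 4 and 7. The part of these markers in the changes of glycolytic and hypoxia genes was not tested.

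**Figure D5:**
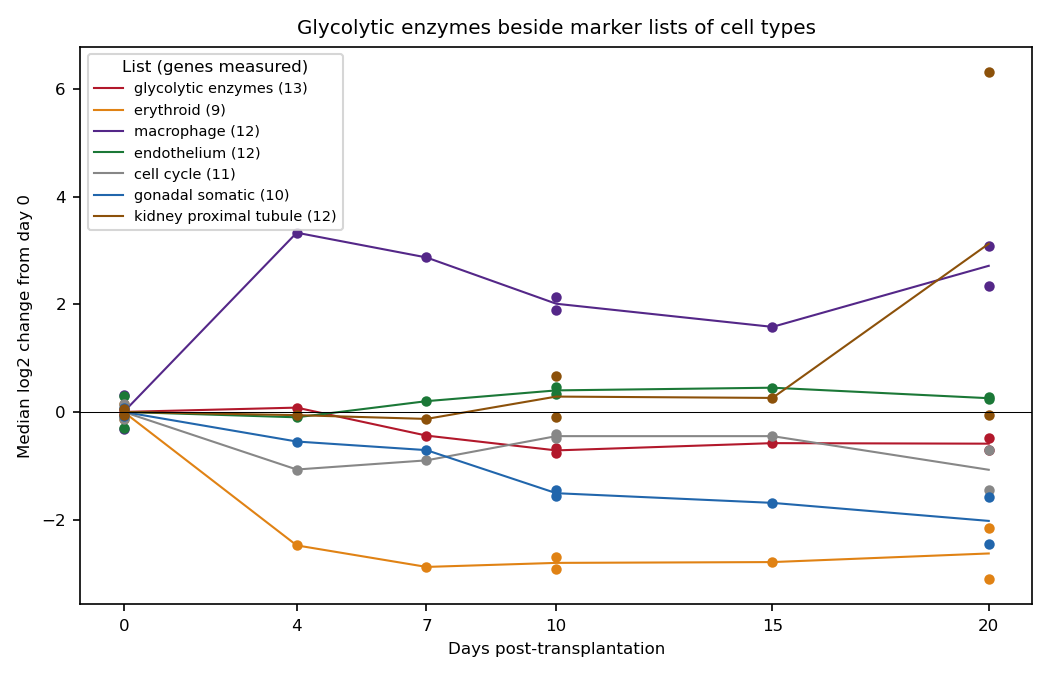
Median log2 change from day 0 (vertical axis) of the glycolytic enzymes and of 6 lists of marker genes, against days post-transplantation, with a point per array and lines through the mean of each day. Erythroid markers lie between -3.10 and -2.16 and macrophage markers between 1.58 and 3.33 on the graft arrays, and the kidney markers stand at 6.31 on day 20 replicate 1 and at -0.06 on replicate 2.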

How the data were processed

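The authors summarised the arrays with RMA, which corrects background, equalises the arrays by quantiles and combines the probes of a set, and deposited log2 values. Its version was not given in the sources read. In the platform annotation, 34958 of the 45101 probe sets carry 1 gene symbol, 932 carry several and 9211 have no entry. Labelling used either of 2 kits, and which array had which is not given. Detection calls do not come with the values, and precision is limited by how few arrays there are. The genes and lists were chosen with earlier results of these data known.

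A mean per day was fitted over all 9 arrays with lmFit and eBayes of limma (version 3.58.1, run in R 4.3.3, with 3 residual and 2.69 prior degrees of freedom), with Benjamini-Hochberg adjustment over all probe sets and thresholds of 0.05 on the adjusted p and 2 on the fold. The fit was tested on simulated data. All 37 genes could be named. Values on every array are given for the genes called against day 0 and for Gapdh, Vegfa, Slc2a1, Ldha, Pgk1, Hif1a and Egln3. Of each related pathway list, at most 5 genes that were called against day 0 are named, by size of change on day 10. Alternatives were an intensity trend, array weights, other scalings, a filter and a floor on low values, other probe sets of a gene, fewer arrays, a replicate block and each duplicate array left out in turn. Plots were drawn with matplotlib 3.10.9 and tables made with pandas 2.3.3 (Python 3.11.15).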

Additional observations from a re-analysis of the deposited data

How the results depend on the processing

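The medians of the glycolytic enzymes stayed between -0.80 and -0.66 on day 10 and between -0.64 and -0.50 on day 15 under 11 alternatives each, and between -0.70 and -0.48 on day 20 with 1 array left out. Those of the other hypoxia targets were less steady. They were -0.28 on day 10 with each array centred on its median, -0.10 and -0.01 on days 7 and 20 with the second probe set of a gene, and -0.12, -0.10 and -0.02 on days 7, 10 and 20 with the mean of all probe sets. With 1 array left out, they ranged from -0.25 to -0.17 on day 7, from -0.28 to -0.12 on day 10, from -0.30 to -0.19 on day 15 and from -0.26 to -0.12 on day 20.

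Numbers of called genes changed more, and the cause was not tested. Counts over all 45101 probe sets moved as well. On day 10 they were 1293 higher and 599 lower in the main fit, 2034 and 1080 with array weights, and 295 and 156 with low values raised. In every comparison with day 0, fewer of all probe sets were called when an array of day 0 or day 10 was left out. On day 4, 1 gene was called with array weights, with centred arrays, with probe sets above the median, with 1 probe set per gene, with the second probe set and with the mean of probe sets. On day 7, 3 were called with array weights, 2 with probe sets above the median, 2 with 1 probe set per gene and 0 with low values raised to the 25th percentile. Low values raised left 1 on day 10, 0 on day 15 and 1 on day 20. The second probe set left 2 on day 10 and 1 on day 15, and on day 15, 4 were called both with probe sets above the median and with 1 probe set per gene. With only the arrays of the 2 days compared, 3 were called on day 20. The F test called 3 genes with an intensity trend, 4 with array weights, 2 with centred arrays, 3 with probe sets above the median, 3 with 1 probe set per gene, 2 with the mean of probe sets and 0 with low values raised. With 1 array left out, the numbers ranged from 0 to 1 on day 4, 0 to 2 on day 7, 0 to 6 on day 10, 0 to 3 on day 15, 0 to 9 on day 20, 0 to 2 between days 20 and 10, and 0 to 5 in the F test. Leaving out a day 10 array changes a day 20 test only through its spread. The Aldoc change on day 15 was 0.02 with its second probe set, which lies near background. GCGTG alone was found in 64.5% of the genes with a promoter.

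The replicate numbers did not pair the samples, with correlations of deviations of -0.16, 0.15 and -0.13 between days 0 and 10, 0 and 20, and 10 and 20. With the replicate block, 4 genes were called on day 10, 5 on day 20 (Pfkl was lost) and 0 between days 20 and 10.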

Other observations

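The 3 probe sets of Bnip3l, a receptor for the removal of mitochondria and a relative of Bnip3, are shared with its pseudogene Bnip3l-ps and were kept out of the counts. Their log2 changes on day 10 were -0.02, 0.28 and 0.39 (adjusted p = 0.955, 0.458 and 0.312), and none was called.

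Fbp1, a gluconeogenesis gene of kidney and liver, measured 5.43 and 5.49 on day 0, 7.35 on day 4, 8.02 on day 7, 7.57 and 8.33 on day 10, 8.68 on day 15, and 13.41 and 8.30 on day 20. G6pc, which releases free glucose, lay between 3.86 and 5.25 on 8 arrays and at 11.30 on day 20 replicate 1. Both genes were chosen after their values were seen, and that array is the one where kidney proximal tubule markers had a median change of 6.31.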
